A study of Mus musculus with 6 samples.

Results

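The red blood cell programme was examined through 8 genes in bone marrow cells of young and old mice: the transcription factor genes Gata1, Klf1, Tal1 and Nfe2, the erythropoietin receptor gene Epor, and the membrane genes Slc4a1, Ank1 and Epb42. They were chosen by name, and each was found on the array through a probe that carries a RefSeq transcript of the gene. The transcripts are NM_008089 (Gata1), NM_010635 (Klf1), NM_011527 (Tal1), NM_008685 (Nfe2), NM_010149 (Epor), NM_011403 (Slc4a1), NM_001110783 (Ank1) and NM_013513 (Epb42). Each of the 8 genes had a single probe, and these are 8 of the 37163 gene names on the array. The study hybridised total RNA from C57BL/6 mice to 6 1-colour Agilent arrays on 1 slide. The young group held 3 samples from mice aged 3 months, and the old group held 3 samples from mice aged 24 months. No treatment or transgene is given in the labels. The cells had been labelled and sorted from bone marrow, with no markers named for the sort, and the labels call them mesenchymal stem cells. Whether the 3 samples of an age are separate animals is not stated, and the p-values therefore cover only sample-to-sample spread, which may be technical.

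In red cell formation, Gata1 works as the central transcription factor, in a complex with Tal1 and its partners, and Klf1 and Nfe2 act with it on the globin genes and other red cell genes. Erythropoietin binds the receptor Epor and keeps young erythroid cells alive through the kinase Jak2 and the factor Stat5. Late in the process the cell builds its membrane: the anion exchanger band 3 (Slc4a1) is tied by ankyrin (Ank1) and protein 4.2 (Epb42) to a network of spectrin under the membrane. Gata1, Tal1 and Nfe2 are also used by megakaryocytes, and Gata1 by mast cells.

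None of the 8 genes passed the test between the ages, and 7 of them had log2 fold changes within 0.25 of zero. Epb42 was the exception in size: its signal was 1.46-fold lower in old samples, but its adjusted p was 0.0771 (limma with Benjamini-Hochberg adjustment over all genes tested, n = 3 and 3). All 8 probes were well above background on 6 of 6 arrays, and none was saturated. Of the 23264 genes tested, 8.01% passed, 3.98% higher and 4.04% lower in old samples, so 0 of 8 is close to that background. At an unadjusted limma p under 0.05 the members numbered 2, Tal1 and Epb42, beside 27.8% of all genes. The median log2 fold change of the 8 genes was 0.00, against 0.07 over all genes tested.

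Promoters of these genes were read from RefSeq to show the sequence elements that the 4 factors bind. A RefSeq promoter entry was found for 5 of the 8 genes, and each window is the 250 bases before the start on build GRCm38.p6, written 5' to 3' along the gene. Capitals mark matches, on either strand, to the GATA motif (spelled AGATAA or with the other ending AGATAG, and likewise TGATAA or with that ending TGATAG), to a pattern for Klf1 (CCNCNCCC), to E-boxes of the kind Tal1 binds (CAGATG and also CAGCTG) and to the core of the NF-E2 motif (TGANTCA). Matches of different motifs were allowed to overlap. The windows of Klf1 and Epor are shown as those of a factor and of the receptor, that of Gata1 as the leading factor, and that of Epb42 as the gene with the largest difference between the ages.
Gata1 (chrX:7967911-7968160, - strand): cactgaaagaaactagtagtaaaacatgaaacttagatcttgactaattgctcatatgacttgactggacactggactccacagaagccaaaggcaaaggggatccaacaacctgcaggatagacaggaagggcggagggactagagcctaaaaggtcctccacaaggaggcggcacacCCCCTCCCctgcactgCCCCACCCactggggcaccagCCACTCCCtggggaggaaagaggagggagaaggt
Klf1 (chr8:84901732-84901981, + strand): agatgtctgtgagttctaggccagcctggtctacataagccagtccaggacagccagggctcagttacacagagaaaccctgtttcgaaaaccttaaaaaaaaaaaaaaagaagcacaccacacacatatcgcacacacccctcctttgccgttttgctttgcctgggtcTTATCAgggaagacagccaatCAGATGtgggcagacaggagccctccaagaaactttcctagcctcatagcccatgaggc
Epor (chr9:21963577-21963826, - strand): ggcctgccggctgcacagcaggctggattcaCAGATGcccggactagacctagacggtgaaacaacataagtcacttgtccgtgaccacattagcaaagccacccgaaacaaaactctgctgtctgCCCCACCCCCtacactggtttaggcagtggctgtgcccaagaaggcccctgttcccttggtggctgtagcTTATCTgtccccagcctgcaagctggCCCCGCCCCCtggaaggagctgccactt
Epb42 (chr2:121036878-121037127, - strand): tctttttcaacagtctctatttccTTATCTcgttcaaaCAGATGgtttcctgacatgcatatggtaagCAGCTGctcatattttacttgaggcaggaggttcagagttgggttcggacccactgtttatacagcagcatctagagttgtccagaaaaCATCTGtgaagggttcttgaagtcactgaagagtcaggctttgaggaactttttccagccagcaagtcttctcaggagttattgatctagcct
The Klf1 window held 1 GATA match, 80 to 75 bases before the start, and 1 E-box match at 59 to 54 bases. In the Epor window 1 GATA match lay 54 to 49 bases before the start, beside 1 E-box and 4 matches of the Klf1 pattern that overlap in pairs. Epb42 had 1 GATA match and 3 E-boxes and no match of the Klf1 pattern. The Gata1 window, which lies inside the annotated span of the gene, had 3 matches of the Klf1 pattern and neither of the other 2 kinds. The windows of Tal1 are not shown: 1 window held 1 GATA match only, and a further window held 4 matches of the Klf1 pattern only. No NF-E2 core was found in any of these windows. Over 32851 RefSeq promoter entries cut to the same length, 26.5% held a GATA match, 45.9% the Klf1 pattern, 25.5% an E-box and 6.75% the NF-E2 core, so the matches are a description of the letters only.

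The genes that carry these letters were then set beside the age comparison. A gene counted as a carrier when any of its entries held a match, so shares of tested genes differ from the shares of entries above. The Klf1 pattern was in 6957 tested genes and absent from 3902. Of 2456 tested genes with a GATA match, 9.16% passed and the median log2 fold change was 0.04. Of 8403 tested genes whose windows lacked it, 8.08% passed, with a median of 0.03. For the Klf1 pattern the medians were 0.02 with and 0.06 without a match. For the E-boxes they were 0.02 and 0.04, and for the NF-E2 core 0.02 and 0.03. The shares that passed were 8.37% and 8.25% for the Klf1 pattern and 9.48% and 7.95% for the E-boxes. For the NF-E2 core 68 of 637 tested genes with a match passed, against 836 of 10222 without, the widest gap in these shares among the 4 motifs, and it was not tested.

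Gata1, the factor on which red cell formation depends, read 6.81, 6.88 and 6.92 in the young samples and 6.96, 6.93 and 7.06 in the old samples. These signals, like all that follow, are log2 values relative to the 75th percentile of the array, in the order of replicates 1, 2 and 3. The old samples lay just above the young samples, with no overlap. The log2 fold change of old over young, given with its SE throughout, was 0.11 ± 0.08 (limma adjusted p = 0.409), or 1.08-fold with a 95% interval of 0.943 to 1.24. A lack of overlap was common: the groups did not overlap in 36.0% of all genes tested, with old samples higher in 22.9% and lower in 13.1%, and 3 of the 8 members belonged to that share. Among the 942 genes with a mean signal from 6 to 8, where Gata1 lies, old samples were above all young samples in 49.6%. Cyclic loess turned the Gata1 value to -0.016, the deposited values to -0.020 and quantile normalization to -0.043, so these data fix no direction for it.

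Tal1, the basic helix-loop-helix partner of Gata1, showed the largest positive difference of the 8 genes. It read 5.46, 5.37 and 5.33 in young samples against 5.58, 5.57 and 5.61 in old samples. The old samples were tightly grouped (SD 0.02, n = 3) above all young samples. The difference of 0.20 ± 0.08 corresponded to 1.15-fold higher in old samples with a 95% interval of 1.01 to 1.31, and it did not pass (limma adjusted p = 0.157). It stayed positive in 16 of 16 alternatives, but shrank to 0.10 with quantile normalization and 0.10 with cyclic loess. A changed filter on dim probes, the mean of all probes and the replicate block cannot move the estimate of a single-probe gene. The sign in those settings was therefore fixed in advance. Among the 2201 genes with a mean signal from 4 to 6, where Tal1 lies, old samples were above all young samples in 29.7%.

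Klf1, the erythroid Krüppel-like factor that binds the beta-globin promoter, read 4.54, 4.56 and 4.67 in young and 4.68, 4.58 and 4.39 in old samples. The groups overlapped, and the highest and the lowest values were both in old samples. The difference was -0.04 ± 0.10 (limma adjusted p = 0.845), and the 95% interval of the old over young fold ran from 0.817 to 1.16. Nfe2, the haematopoietic subunit of the factor NF-E2, read 4.68, 4.73 and 4.76 in young and 4.75, 4.81 and 4.90 in old samples. Only old replicate 1 fell within the young range. Its difference was 0.10 ± 0.08 (limma adjusted p = 0.478; 95% interval of the fold 0.932 to 1.23).

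**Figure D1:**
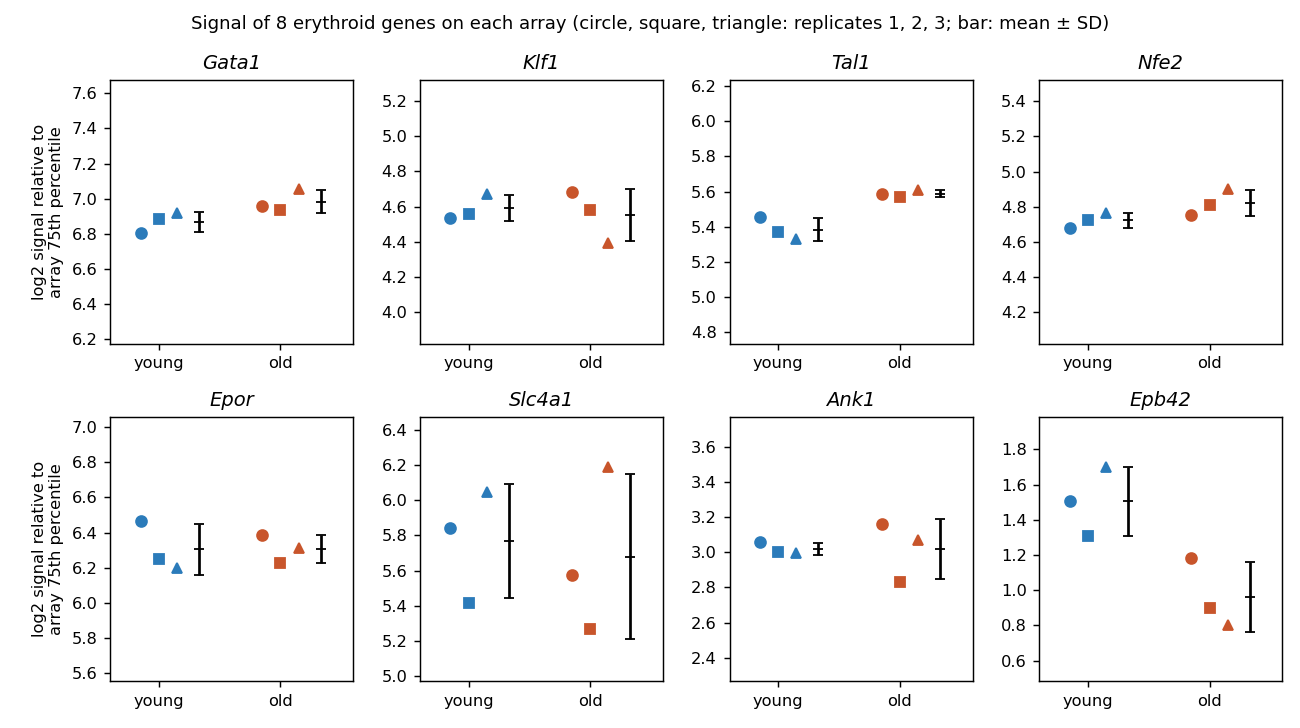
Signal of the 8 genes on each array, as log2 relative to the array's 75th percentile on the vertical axis; circles, squares and triangles are replicates 1, 2 and 3, and the black bars are mean ± SD (n = 3). Every panel spans the same height. The Tal1 points of the old group lie between 5.57 and 5.61, above all young points, the Epb42 points of the old group lie between 0.80 and 1.18, below all young points, and Slc4a1 spreads from 5.27 to 6.19 within the old group alone.

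Of the transcription factor genes, Gata1, Tal1 and Nfe2 varied little within a group. Their standard deviations within a group, pooled over both ages, were 0.06, 0.05 and 0.06 log2 units, against a median of 0.16 over all genes tested. Smaller values than theirs were found in 6.58%, 3.52% and 7.20% of genes. For Klf1 the standard deviation was 0.12, with smaller values in 31.3% of genes. These shares are over all genes tested and were not matched for signal.

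Epor, the receptor through which erythropoietin acts, differed by 0.00 ± 0.10 between the ages (limma adjusted p = 0.987). It read 6.47, 6.25 and 6.20 in young samples against 6.39, 6.23 and 6.31 in old samples. All old values lay inside the young range. The 95% interval of the old over young fold was 0.840 to 1.20, so with 3 samples a group differences within that range are not excluded. With quantile normalization the value was -0.13, and in the genes with a mean signal from 6 to 8 the median difference was 0.14.

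Of the membrane genes, Slc4a1, which encodes the anion exchanger band 3, had the widest spread of the 8 genes, at 5.84, 5.41 and 6.05 in young and 5.58, 5.27 and 6.19 in old samples. In both groups replicate 3 was the highest and replicate 2 the lowest, though the replicate numbers do not tie the samples together across ages. The difference was -0.09 ± 0.27 (limma adjusted p = 0.863), with a 95% interval of the fold from 0.593 to 1.49. Without old replicate 3 it was -0.34 and without old replicate 2 it was 0.12, so its sign rested on single arrays. The within-group standard deviation of Slc4a1 was 0.40, larger than that of 88.2% of genes.

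Ank1, the ankyrin that anchors band 3 to spectrin, was steady in young samples at 3.06, 3.00 and 3.00 and more variable in old samples at 3.16, 2.83 and 3.07. The old values lay on both sides of the young ones. The difference was 0.00 ± 0.11 (limma adjusted p = 0.994; 95% interval of the fold 0.834 to 1.20).

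Epb42, protein 4.2, which helps to hold band 3 to ankyrin, read 1.51, 1.31 and 1.70 in young samples against 1.18, 0.90 and 0.80 in old samples. All old values were below all young values, which was so in 13.1% of all genes tested. Among the 4160 genes with a mean signal from 0 to 2, where Epb42 lies, the share was 15.8%. The difference was -0.54 ± 0.15 (limma adjusted p = 0.0771), and the 95% interval of the young over old fold was 1.14 to 1.87. The sign was negative in 16 of 16 alternatives, with values from -0.65 to -0.45. As for Tal1, the filter, probe-mean and block settings among them could not move the estimate. With normexp background correction the value was -0.51 and the gene passed (limma adjusted p = 0.0235), while the adjusted p over all alternatives ran from 0.0235 to 0.197.

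**Figure D2:**
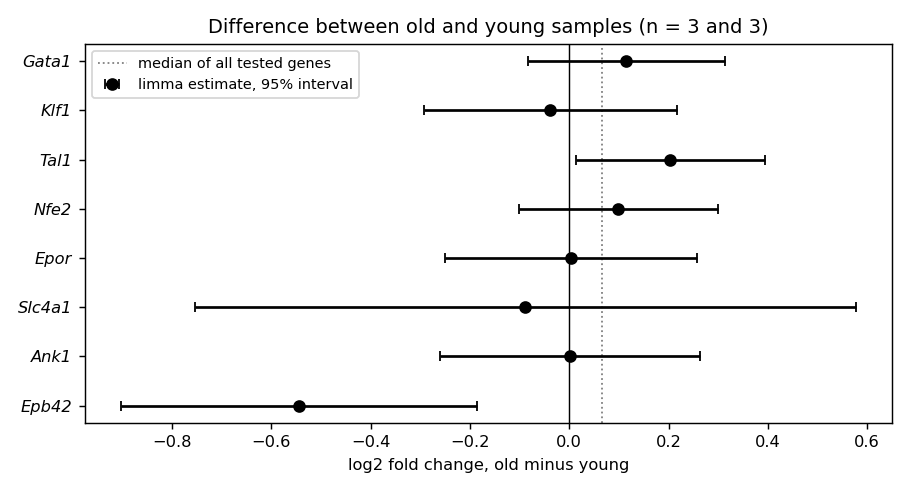
Difference between old and young samples for the 8 genes, as log2 fold change on the horizontal axis; points are limma estimates from 3 and 3 samples, bars are 95% intervals, the solid line is no difference and the dotted line is the median of all genes tested (0.07). The bars of Tal1 and Epb42 do not cross 0 before adjustment for the number of genes, and the bar of Slc4a1 is the widest, from -0.75 to 0.58.

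Because scaling shifts all genes of an array together, each gene was also set against the mean of the other 7 within the same array. This measure does not depend on the scaling factor of an array, but it does not remove shifts that depend on signal. The median difference was 0.04 among genes with a mean signal from 0 to 2, where Epb42 lies. It was 0.14 among those from 6 to 8. Relative to the others, Epb42 was -3.75, -3.86 and -3.58 in young and -4.12, -4.27 and -4.56 in old samples on the log2 scale. The groups did not overlap, and the relative value was 1.50-fold lower in old samples. The share of all genes without overlap on this measure was not computed. Tal1 relative to the other 7 was 0.76, 0.78 and 0.57 in young and 0.91, 1.06 and 0.93 in old samples, a difference of 0.27 without overlap. The other 7 include Epb42, whose lower values in old samples add to this difference, so the 2 results are not independent. For both genes the exact two-sided permutation p was 0.1, the smallest that 20 ways of splitting the 6 arrays allow. The other 6 genes overlapped between the ages, with relative differences from -0.07 to 0.17 and exact permutation p-values from 0.2 to 1.0.

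**Figure D3:**
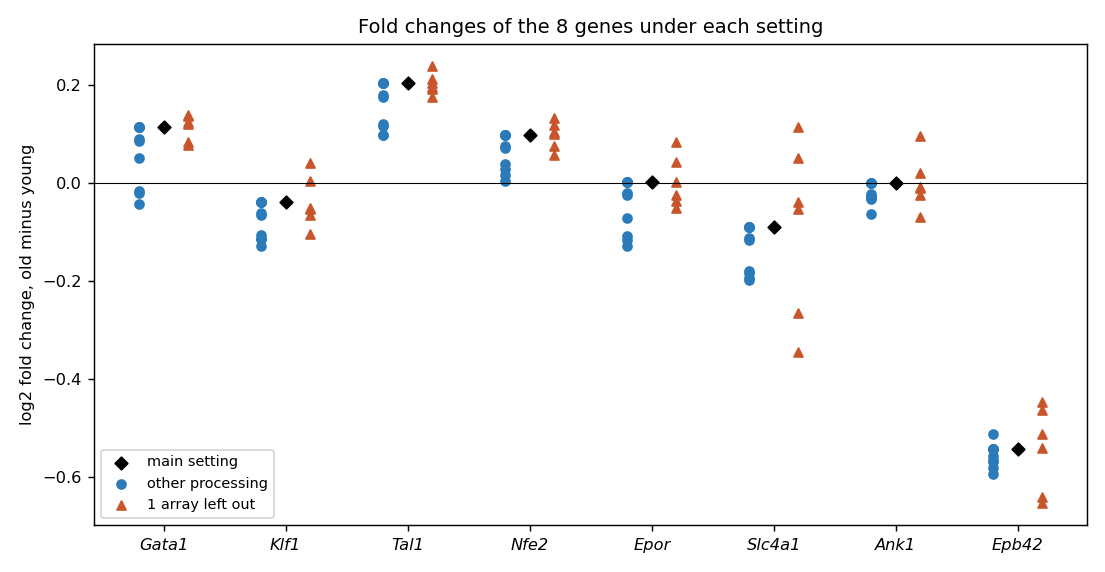
Log2 fold change between old and young samples on the vertical axis for each of the 8 genes under every setting; black diamonds are the main setting, blue circles the 10 other ways of processing and red triangles the 6 settings that leave out 1 array. Epb42 stays between -0.65 and -0.45 and Tal1 between 0.10 and 0.24, while Gata1, Klf1, Epor, Slc4a1 and Ank1 have points on both sides of 0.

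The partners of the 8 genes were described from lists by role. Of 21 erythroid factors and cofactors, all tested, 1 rose, 1 fell and 19 did not pass, with a median log2 fold change of 0.10 and 5 at an unadjusted p under 0.05. Those that share a complex with Gata1 and Tal1 did not pass. The E protein gene Tcf3, whose product pairs with Tal1, read 3.70, 3.75 and 3.47 in young against 4.07, 3.93 and 4.20 in old samples, without overlap, a difference of 0.43 ± 0.12 (limma adjusted p = 0.0808). Tcf12, a further E protein gene of the list, had the opposite sign, at -0.07 ± 0.09, and its groups overlapped (limma adjusted p = 0.688). The adaptor gene Lmo2 was 0.16 ± 0.08, the bridging protein gene Ldb1 -0.04 ± 0.09, the Gata1 cofactor gene Zfpm1 0.02 ± 0.10 and Gfi1b, a repressor needed for red cell formation, 0.18 ± 0.12. Nfia, a nuclear factor I gene, rose by 1.26 ± 0.25 (limma adjusted p = 0.0397), from -0.25, -0.11 and -0.58 in young to 0.70, 0.65 and 1.48 in old samples. A further Nfia probe gave 0.55 and did not pass (limma adjusted p = 0.191), nor did the mean of its probes (0.91, limma adjusted p = 0.0538). Bach1, a haem-sensing repressor that competes with NF-E2 for small Maf proteins, fell by 0.42 ± 0.09 (limma adjusted p = 0.0422), from 0.86, 0.66 and 0.75 to 0.37, 0.35 and 0.28. The ages did not overlap in either gene, and 7 of the 21 genes of the list lacked overlap, beside 36.0% of all genes tested. Both calls ended when any single array was left out (limma adjusted p of at least 0.0609 for Nfia and 0.0770 for Bach1). The small Maf partner genes of NF-E2 had values of -0.14 ± 0.11 (Mafg) and -0.24 ± 0.10 (Mafk) and did not pass.

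In the erythropoietin pathway 0 of 17 tested genes passed by limma, 4 had an unadjusted p under 0.05, and the median was -0.11. The kinase gene Jak2, which Epor activates, was at -0.0049 ± 0.09, Stat5a at 0.33 ± 0.12 (limma adjusted p = 0.133) and Stat5b at -0.11 ± 0.08. The pathway's inhibitors Socs1 (-0.70 ± 0.17, limma adjusted p = 0.0631) and Socs3 (-1.57 ± 0.45, limma adjusted p = 0.0855) had the smallest p-values of this list, and neither passed. Socs1 passed in 1 of 10 other ways of processing and Socs3 in none of them, and with normexp their values were -0.22 and -0.58. The gene of the hormone itself, Epo, was not well above background on any array.

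Among 24 further genes of the red cell membrane and its skeleton, 0 passed by limma, 4 had an unadjusted p under 0.05, and 19 lay within 0.25 log2 units of 0, with a median of -0.02. Sptb, the spectrin beta gene, was well above background on only 3 of the 6 arrays. The Rh-associated glycoprotein gene Rhag differed by -0.02 ± 0.10. Protein 4.1, Epb41, differed by 0.10 ± 0.08 and Dmtn, dematin, by -0.23 ± 0.14. The smallest p-values were those of the urea transporter gene Slc14a1 (0.45 ± 0.11, limma adjusted p = 0.0641) and the tropomyosin gene Tpm3 (-0.23 ± 0.08, limma adjusted p = 0.127). Averaging the 2 Tpm3 probes turned its value to 0.14, but the further probe was too dim to be tested on its own. Of 20 tested erythroid products, which include alpha-globin and the enzymes of haem synthesis, 19 did not pass and 1 fell, with a median of -0.03. The gene that fell was Tmcc2 (-0.72 ± 0.15, limma adjusted p = 0.0448), and it did not pass with cyclic loess, with normexp (-0.21), without the filter on dim probes, with the replicate number as a block (limma adjusted p = 0.107) or in 5 of the 6 settings that leave out 1 array.

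**Figure D4:**
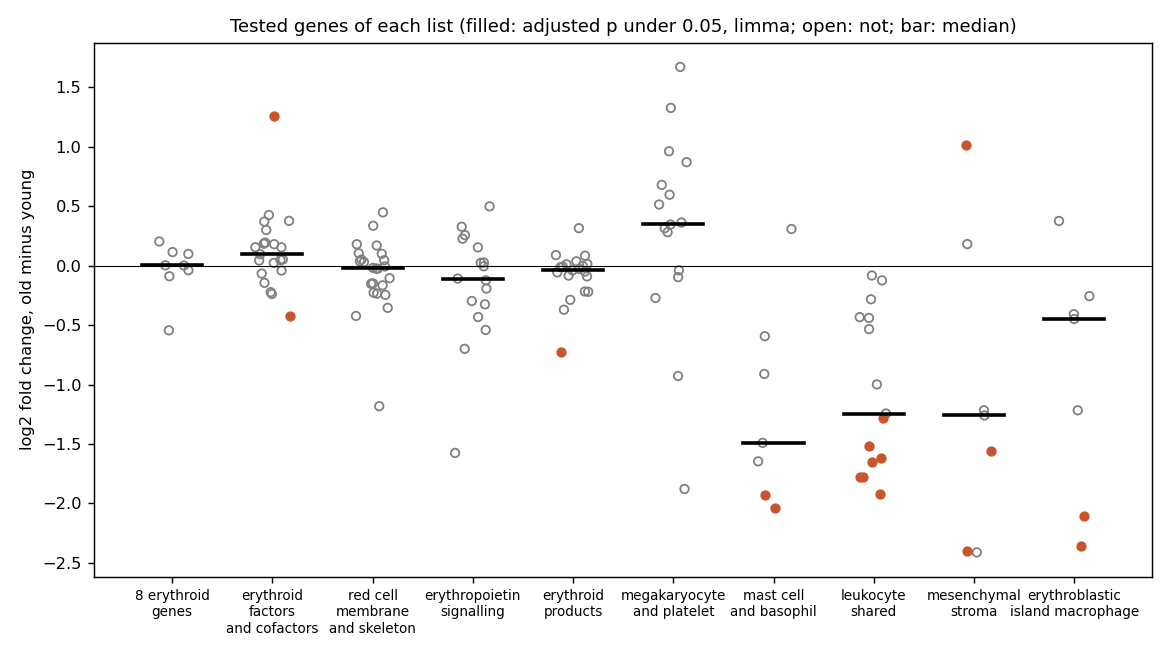
Log2 fold change between old and young samples on the vertical axis for each tested gene of the 8 erythroid genes and of 9 other lists; filled points passed limma at an adjusted p under 0.05, open points did not, and horizontal bars are list medians. The 4 red cell lists beside the 8 genes have medians from -0.11 to 0.10, and the shared leukocyte genes have a median of -1.24.

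Samples of the same age also differed from each other in the membrane genes. Over Slc4a1, Ank1, Epb42 and the 24 other membrane genes, young replicate 2 was the lowest of the young samples in 16 of 27 genes and old replicate 2 the lowest of the old samples in 19 of 27. Over all genes tested those shares were 30.8% and 29.5%. In the erythroid products the same 2 arrays were the lowest in 12 of 20 genes each. In the erythroid factors and cofactors they were the lowest in 5 and 7 of 21. Slc4a1 was among these genes in both groups, at 5.41 in young replicate 2 and 5.27 in old replicate 2. These counts were made after the values were seen and carry no test.

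**Figure D5:**
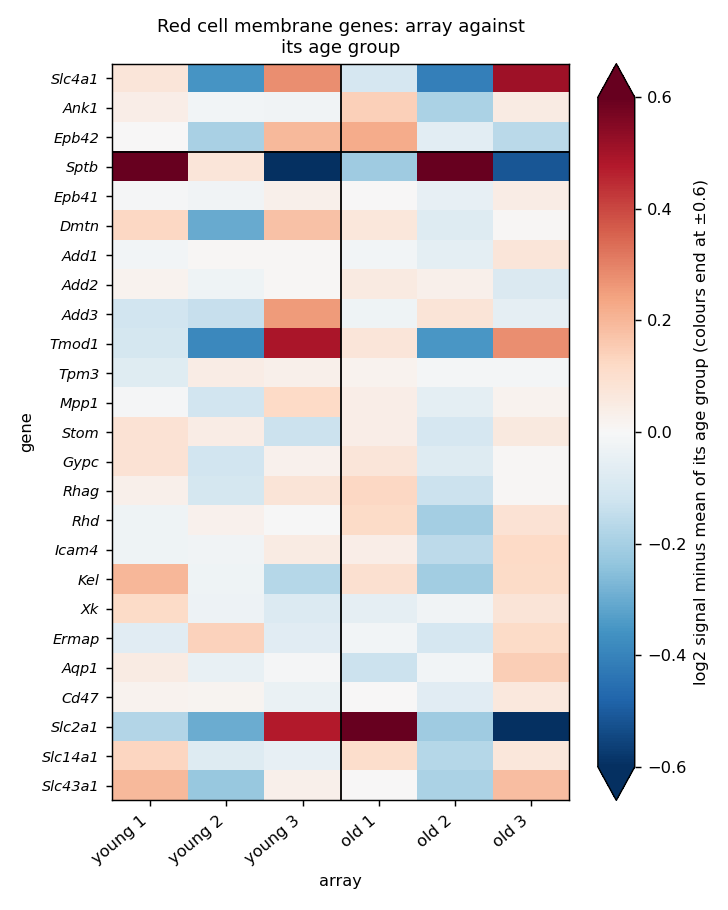
Log2 signal of 25 of the 27 red cell membrane genes on each array minus the mean of its age group, from blue (below) to red (above); rows are genes, with Slc4a1, Ank1 and Epb42 above the line, and columns are the 6 arrays. Young replicate 2 is the lowest young sample in 14 of the 25 rows and old replicate 2 the lowest old sample in 17.

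The sample label was set beside the markers of other cells. Of 12 stromal genes, 6 were well above background on all arrays, Lepr, Cxcl12 and Thy1 among them. The other 6 include Pdgfra, Pdgfrb, Prrx1, Twist1 and Foxc1, which did not rise well above background on any array. All 8 erythroid genes did on every array. In bulk samples fewer cells of a type and less RNA per cell cannot be told apart. Signals of a list were summed before taking log2, so its brightest genes weigh most. Among the 8 erythroid genes these were Gata1 and Epor, and Epb42 weighed least. The summed signal of the 8 erythroid genes was 8.40 to 8.51 in young and 8.43 to 8.63 in old samples (log2 here and for the lists below). That of 15 shared leukocyte genes was 7.46 to 8.22 in young and 6.75 to 6.93 in old samples, with 7 of 15 lower. Among them Ptprc, the common leukocyte antigen, fell (-1.28 ± 0.24), as did Cytip (-1.77 ± 0.22; limma adjusted p = 0.0359 and 0.0222). Of 7 tested mast cell and basophil genes, which belong to another Gata1 lineage, 2 fell: the carboxypeptidase gene Cpa3 (-2.04 ± 0.41) and the histidine decarboxylase gene Hdc (-1.93 ± 0.38; limma adjusted p = 0.0390 and 0.0382). With normexp Cpa3 was -0.94. Their summed signal over 10 genes was 3.63 to 4.85 in young and 2.48 to 2.82 in old samples, and the mast cell markers Ms4a2 and Cma1 were not well above background anywhere.

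Megakaryocyte genes, which share Gata1, Tal1 and Nfe2, passed in 0 of 16 by limma (3 at an unadjusted p under 0.05), with a median of 0.35. Their summed signal was 5.61, 4.71 and 4.34 in young and 5.96, 5.57 and 4.45 in old samples. Replicate 3 was the lowest of each group in this sum. Gata1 and Nfe2 were highest in replicate 3 of both groups. Tal1 was lowest in young replicate 3 and highest in old replicate 3. How the sum relates to these genes was not tested. The smallest p-values of the list were those of Thbs1, the thrombospondin gene (-1.88 ± 0.50, limma adjusted p = 0.0750), and Nbeal2, a platelet granule gene (-0.93 ± 0.30, limma adjusted p = 0.109). A further Nbeal2 probe gave -0.16, and the mean of its probes was -0.54. Of the 16 genes 11 had positive values. Macrophages of the erythroblastic island, in whose company red cells mature, had a summed signal of 4.36 to 4.70 in young and 4.38 to 4.60 in old samples, while 6 of its 7 tested genes had negative values, with a median of -0.45. Adgre1 fell (-2.10 ± 0.40; limma adjusted p = 0.0356), with -0.91 under normexp and a further probe at -0.99 that did not pass. Mrc1 also had an adjusted p under the threshold, but it was well above background on the 3 young arrays only. It entered the test through the group where it was high, so its p supports nothing. It was at least 1.33-fold lower in old samples, and -0.15 with normexp. In the stromal list 1 of 7 tested genes rose, the leptin receptor gene Lepr (1.02 ± 0.14), and 2 fell, the chemokine gene Cxcl12 (-2.40 ± 0.43) and Thy1 (-1.56 ± 0.33; limma adjusted p = 0.0251, 0.0324 and 0.0436). With normexp Cxcl12 was -1.10, and the mean of its probes, which takes in signal too dim to be tested, did not pass (limma adjusted p = 0.101). The summed signal of that list was 4.59 to 4.80 in young and 5.13 to 5.39 in old samples, whereas 5 of its 7 tested genes had negative values and its median log2 fold change was -1.26. Lepr, which rose from a mean of 3.75 in young to 4.77 in old samples, is a large part of that sum. Cxcl12 (-0.81 to -3.21) and Thy1 (0.30 to -1.26) add little to it. The higher sum therefore does not describe the list as a whole. The part of these cells in the Epb42 and Tal1 values was not tested. The 14 named genes outside the 8 that passed, Mrc1 included, kept their calls in 6 to 8 of the other ways of processing and in 0 to 3 of the 6 settings without an array. There were 10 such ways, of which Mrc1 could be run in 9.

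Fewer probes were detected on the old arrays, with 50.9% to 53.4% of the 55681 probes well above background against 55.3% to 60.0% on the young arrays. The 75th percentile of the processed signal overlapped, at 206 to 285 on the old and 277 to 349 on the young arrays. The young and old arrays lay in separate rows of the slide, and the effect of age cannot be told apart from that of the row. The count of genes passing was 768 without young replicate 1, 63 without young replicate 2, 321 without young replicate 3, and 1153 without old replicate 1, against 1864 with all arrays. It was 1 when old replicate 2 was left out and 5 when old replicate 3 was. None of the 8 erythroid genes passed in any of these 6 settings.

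The genes whose profile over the 6 arrays lay closest to the mean profile of the 8 were Zfp414, Chtf18, Cln8, Lbr and Cybc1. Their root mean square differences from it, over 6 arrays, were 0.02, 0.02, 0.02, 0.02 and 0.03 log2 units. The mean profile itself moved little, from -0.11 in old replicate 2 to 0.07 in young replicate 3, and differed by -0.03 between the ages.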

How the data were processed

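Spot intensities were deposited by the authors as Agilent Feature Extraction output, version 10.7.3.1 per the file headers and 10.5.1.1 per the submitters' processing notes. The authors also deposited a log2 table, with scaling not stated, used as an alternative. Its column medians ran from 4.87 to 4.95, and each column followed its own array (r = 0.9986 to 0.9995). Control and outlier spots were left out, spots of a probe were averaged, and log2 processed intensities were set relative to each array's 75th percentile over probes. The probe design is annotated on mm9. Symbols came from RefSeq (GRCm38.p6) by accession for 26413 of 55681 probes. The brightest probe stood for a gene, tested when well above background on at least 3 of 6 arrays. The ages were tested by limma (3.58.1, R 4.3.3) with Benjamini-Hochberg adjustment at 0.05, and figures and tables made with Python 3.11.15, pandas 2.3.3 and matplotlib 3.10.9. The steps were tested on simulated data.

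The members, lists and tests were chosen with earlier results of these data known. Besides the members, the genes named were the 4 with the smallest p per direction among those past the threshold in each list, or 2 where none passed, the 5 nearest profiles and markers not above background; Cd52 and Lsp1 of the leukocyte list, also chosen by this rule, fell as well. Other genes named are partners picked after their values were seen. Of the lists, Hbb-b1 and Ahsp were not matched. For Mrc1 the bound sets the young mean against the lowest signal well above background on each old array. Same-numbered samples were not paired. The values of 2 membrane genes are not reported here; they are part of the counts.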

Additional observations from a re-analysis of the deposited data

How the results depend on the processing

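Of 16 alternatives, 10 changed the processing and 6 left out 1 array. None of Tal1, Nfe2 and Epb42 changed sign in any of them, though Nfe2 shrank to 0.0051 with cyclic loess and 0.017 with quantile normalization. For these single-probe genes the changed filters, the mean of all probes and the replicate block could not alter the estimate. With cyclic loess, quantile normalization and the deposited values Gata1 was -0.016, -0.043 and -0.020. Ank1 was -0.064, -0.028 and -0.032 and Epor -0.12, -0.13 and -0.11 with these 3. With median scaling Ank1 was -0.026 and Epor -0.024, with the percentile of detected probes -0.022 and -0.020, and with normexp -0.029 and -0.071. The normexp setting, chosen after seeing the files because they hold median and not mean signals, gave 1 member called (Epb42, -0.51) and 2911 genes. It gave 1 membrane gene, 0 erythroid products, 2 megakaryocyte, 4 mast cell, 12 leukocyte and 1 macrophage gene. Quantile normalization and the deposited values gave 1 membrane gene each, and cyclic loess gave 0 erythroid products. Calls higher in old samples were 49.6% of all calls, 62.0% with normexp, 59.9% with the filter on all arrays and 39.0% with the deposited values. That filter gave 1 membrane, 1 erythropoietin and 1 macrophage gene. The mean of all probes, which takes in probes too dim to be tested, gave 1 factor and 1 erythropoietin gene and turned Tpm3 to 0.14.

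Without the filter on dim probes 0 genes passed (11662 at an unadjusted limma p under 0.05), with 0 in the factor, product, mast cell, leukocyte, stromal and macrophage lists. The same counts of 0 were found with the replicate number as a block (5553 unadjusted). Deviations of same-numbered samples correlated at -0.03, 0.02 and -0.01, so the numbers gave no sign of pairing.

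With 1 array left out the genes passing ranged from 1 to 1153, and the members from 0 to 0. Ranges were 0 to 0 for factors, 0 to 1 for products, megakaryocyte, mast cell and macrophage genes, 0 to 4 for leukocyte and 0 to 3 for stromal genes. Values ranged from -0.10 to 0.041 for Klf1, -0.050 to 0.085 for Epor, -0.34 to 0.12 for Slc4a1 and -0.069 to 0.097 for Ank1. The number of arrays limits the precision, and a group of 3 against 3 cannot give an exact p below 0.1.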
